A study of Mus musculus with 6 samples.

Results

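Contacts of microRNA (miRNA) loci were described from 4 MARIO libraries of mouse cells. MARIO joins RNAs that lie near each other on a protein into a chimeric molecule, with a linker between its first fragment, RNA1, and its second, RNA2. Each read pair gives the position, type and name of both. A read pair was taken where either end had the annotated type miRNA. There were 7598 such lines, which came to 4874 read pairs once lines with equal coordinates at both ends were counted as 1. This was 4874 of 5581375 collapsed read pairs in the 4 libraries, and of 6792341 in the whole series of 6 libraries. The 4969 miRNA ends carried 338 locus names, of which 181 had a single read pair and 36 had at least 10. Names of the mir-290 to mir-295 and mir-302 loci, which are miRNA clusters of pluripotent cells, were set apart as the ES set.

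ES-1 and ES-2 were a pair of assays on the E14 line of embryonic stem (ES) cells (strain 129/Ola), grown without feeder cells and with LIF. ES indirect came from the same line, and MEF from mouse embryonic fibroblasts of strain C57Bl/6. ES-1, ES-2 and MEF received ultraviolet light of 254 nm, whereas ES indirect received formaldehyde with EGS, which also couple protein to protein, and was sonicated. By the labels, RNA was first cut to about 1000 nt in the ES cell libraries and to about 300 nt in MEF. Ribosomal RNA (rRNA) was depleted by duplex-specific nuclease (ES-1, ES indirect) or by a kit, GeneRead (ES-2, MEF). Cell type, strain, fragment size and depletion therefore cannot be told apart between MEF and ES-1, and ES indirect and MEF had 1 library each. As a check of the labels, exonic ends of 12 ES cell marker mRNAs were summed per 1000000 collapsed read pairs. The sums were 426, 353 and 952 in ES-1, ES-2 and ES indirect. In MEF the sum was 66.8, and Nanog, Tdgf1, Dnmt3b and Lin28a were at 0. The 12 fibroblast markers summed to 1185 per 1000000 in MEF and to between 205 and 274 in the other libraries. A few single markers did not follow these sums, and the rest of both lists did. L1td1 was higher in MEF (10.7) than in ES-2 (8.86). Fn1 was lower in MEF (190) than in ES-1 (238), and Timp1 lower in MEF (2.67) than in ES indirect (4.83). Ctgf was at 0 in MEF and between 2.42 and 4.03 in the ES cell libraries.

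A miRNA is cut from a hairpin in a longer transcript. Drosha releases the hairpin in the nucleus, Dicer removes its loop in the cytoplasm, and 1 of the arms is loaded into an Argonaute protein. There, bases 2 to 8 of the mature miRNA, the seed, pair with target mRNAs, most often in the 3′ untranslated region (UTR). The mir-290 to mir-295 cluster is the main miRNA cluster of mouse ES cells and is known for promoting their rapid cell cycle, and the mir-302 cluster carries related seeds and is active slightly later in development.

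The ES-set hairpins from Mir290 to Mir295 lie between chr7:3218627 and chr7:3220842 (mm9) on the plus strand. Mature sequences that most of the matched fragments of this cluster came from, with miR-302b-3p, which had no fragment, for comparison, are given below with the seed in capitals, because several 3′ arms share the first bases of their seed with each other and with mir-302. They are RefSeq sequences (build GRCm38.p6), placed on mm9 by exact match.
miR-291a-3p, chr7:3218969-3218990: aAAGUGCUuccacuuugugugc
miR-294-3p, chr7:3220692-3220713: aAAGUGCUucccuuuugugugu
miR-295-3p, chr7:3220816-3220838: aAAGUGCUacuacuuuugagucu
miR-293-3p, chr7:3220391-3220412: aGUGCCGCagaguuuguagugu
miR-291a-5p, chr7:3218933-3218954: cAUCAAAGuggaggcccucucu
miR-290a-5p, chr7:3218640-3218661: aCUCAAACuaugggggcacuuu
miR-302b-3p, chr3:127248193-127248215: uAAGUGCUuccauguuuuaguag
Among the 3p miRNAs that RefSeq lists for these loci, not all of them printed above, bases 2 to 7 were AAGUGC in 7. These were miR-290a-3p, miR-291a-3p, miR-291b-3p, miR-294-3p, miR-295-3p, miR-302b-3p and miR-302d-3p. Others differed there, with GUGCCG in miR-293-3p and AGUGCU in miR-302c-3p. miR-290b-3p (AGUGCC) and miR-292b-3p (AGAGCC) come from the minus strand, opposite Mir290 and Mir292. The RefSeq set used here held no 3p sequence for Mir292 itself.

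Most ends typed as miRNA shared their sequence with another kind of RNA. Read pairs with a miRNA end made up 0.0373% of collapsed read pairs in ES-1 (861, 95% Wilson interval 0.0349 to 0.0398), 0.186% in ES-2 (2311, 0.179 to 0.194), 0.087% in ES indirect (1440, 0.0826 to 0.0916) and 0.0701% in MEF (262, 0.0621 to 0.0791). Intervals cover counting error only, since read pairs are not independent molecules. The ES-1 and ES-2 values, from assays that also differed in rRNA depletion, lay further apart than ES indirect and MEF did. Without the names Mir3963, AC117657 and Mir5099 this turned around, with 0.0261% in ES-1, 0.0203% in MEF, 0.0337% in ES-2 and 0.0457% in ES indirect, as it did where both fragments had at least 20 nt (0.0312%, 0.0286%, 0.0531% and 0.0895%). Of all 4969 ends, 971 had at least 50% of their 16-base words in fragments of the same libraries that were typed rRNA. The count was 1202 for fragments typed transfer RNA (tRNA) and 116 for small nucleolar RNA (snoRNA). For mRNA it was 930, with the words looked up in annotated coding transcripts (GENCODE vM1) instead of fragments. The other 1750 ends shared them with none of these types. These shares differed between libraries, as the plot of shared sequence shows. The tRNA class held 47.8% of the ends in ES-2 and between 1.78% and 7% in the other libraries, the rRNA class 44.5% in ES indirect and between 7.08% and 12.8% elsewhere, and the mRNA class 38.2% in ES-1 and 32.5% in ES indirect against 4.02% in ES-2 and 4.15% in MEF.

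**Figure D1:**
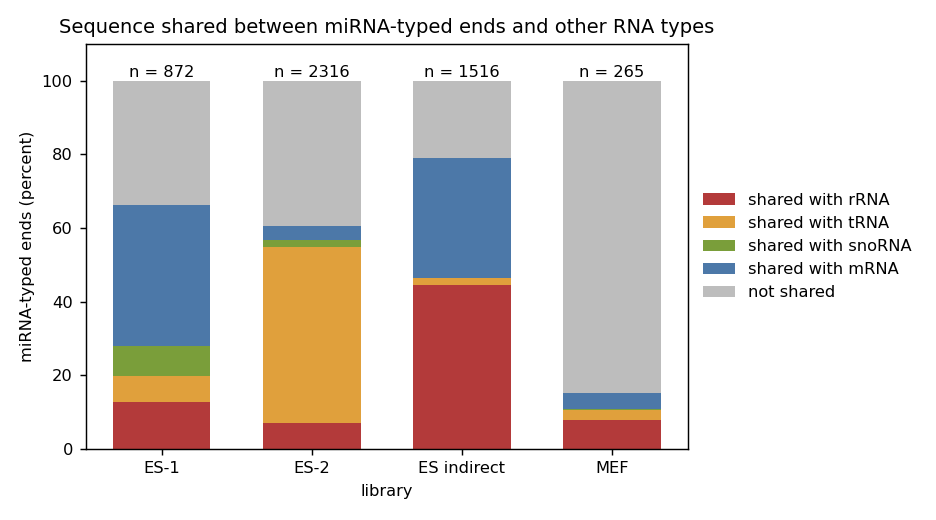
Share of miRNA-typed ends (percent, stacked bars) by the type of RNA with which the end shared at least 50% of its 16-base words, for each library, with the number of ends above the bar. The tRNA class is widest in ES-2 (47.8%), the rRNA class in ES indirect (44.5%), and in MEF 84.9% of ends fell in none of the classes.

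The names Mir3963, AC117657 and Mir5099 held 62% of all read pairs with a miRNA end (3020 of 4874). Their share was 81.9% in ES-2 and 71% in MEF, and lower in ES indirect (47.5%) and ES-1 (30%). Mir3963 and AC117657 had most of their read pairs in ES-2, and Mir5099 in ES indirect. The 15 names with most read pairs held 79.8%.

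Mir3963 (chr3:150686756-150686826, minus strand) gave 1137 read pairs, of which 45 were in ES-1, 4 in MEF, 1061 in ES-2 and 27 in ES indirect. It was the RNA1 end in all 1137, and 98.4% of its 16-base words occurred in fragments typed tRNA. The middle 16 bases of its most frequent fragment were found in 5862 fragments of the 4 libraries, of which 1514 were named tRNA-Leu-TTG, 1134 Mir3963 and 1044 the mRNA Tex16. The names differed between libraries. In ES-1, 1203 of these fragments were not annotated, 498 were named Plcb1, 241 tRNA-Leu-TTG and 44 Mir3963. In ES-2, 67 were not annotated, 14 were named Plcb1, 1211 tRNA-Leu-TTG, 966 Tex16 and 1060 Mir3963. Counts under the name Mir3963 therefore do not measure how often its sequence occurred in a library. The listed mature sequence and the most frequent fragment, 703 of the 1137, are shown because they part at both ends, and the fragment lacks the first 3 bases of the mature sequence; capitals mark the seed in the first and the bases that differ from mm9 in the second.
miR-3963, RefSeq: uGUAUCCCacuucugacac
fragment named Mir3963, chr3:150686800-150686818: atcccacttctgacacCAC
Only 34.5% of the fragments named Mir3963 matched mm9 with at most 15% of mismatches. Their partners were large-subunit rRNA in 727 and small-subunit rRNA in 157 read pairs.

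AC117657 (chr15:74394251-74394345, inside an exon of Bai1 on the same strand) gave 129 read pairs in ES-1, 181 in MEF, 799 in ES-2 and 5 in ES indirect. Its fragments had a median of 16 nt, and the most frequent, 641 of 1114, is shown because its 14 bases in capitals recurred under many other names.
fragment named AC117657, chr15:74394265-74394280: cCGGGGCGGCGGGTCc
These 14 bases occurred in 722 RNA1 and 222 RNA2 fragments per 100000 in ES-2, in 626 and 602 in MEF, in 45 and 40.1 in ES-1, and in 2.84 and 5.01 in ES indirect. In ES-2 only 403 of the 8965 RNA1 fragments that held them were named AC117657. The 14 bases were thus more frequent in both libraries depleted with the kit than in the others. Both of these libraries also carry the same sample barcode, so kit and barcode cannot be told apart here.

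Mir5099 (chr12:37542792-37542865) gave 84 read pairs in ES-1, 1 in MEF, 32 in ES-2 and 652 in ES indirect. Its fragments had a median of 90 nt, and 98.4% of their 16-base words occurred in rRNA-typed fragments. Of 5388 fragments with its middle 16 bases, 2368 were named Rn45s, the precursor of the ribosomal RNAs, and 2077 FordPrefect, a DNA transposon. Only 6.5% of the fragments lay inside the annotated locus.

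Other frequent names followed the same pattern with smaller counts, which are given below as read pairs in the order ES-1, ES-2, ES indirect, MEF. Mir5136 (70, 40, 4 and 1) shared 95.5% of its words with snoRNA, and 517 of 630 fragments with its middle 16 bases were named SNORA57, a snoRNA of the H/ACA class. Mir2137 (7, 72, 5 and 12) and Mir5126 (11, 34, 7 and 1) shared 73.7% and 97.7% with rRNA. Mir320, a named miRNA with 26 read pairs, shared 94.2% with rRNA. Mir720 (17, 33, 2 and 0) and Mir5100 (1, 27, 0 and 3) shared 89.7% and 96.8% with tRNA. Of 540 fragments with the middle of Mir5100, 476 were named tRNA-Thr-ACY. Of 1258 with the middle of Mir720, however, only 46 were typed tRNA, and 627 were typed LTR (long terminal repeat).

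A further group of names lay within mRNA sequence and is given in that order too. AC154650 (29, 11, 75, 0), Mir692-1 (33, 11, 47, 0), Mir692-2a (52, 9, 26, 0), Mir692-2b (49, 9, 19, 0) and AL645948 (34, 8, 17, 0) shared their words mainly with Gm10116. Mir692-2b lies in an exon of Gm10116, a gene model on chromosome 13, and Mir692-2a lies in an exon of Ftl2, a ferritin light chain pseudogene inside the Grik3 gene. mmu-mir-703 (43, 6, 17, 0) lies in an exon of Eef1a1, the translation elongation factor, and AC152453 (12, 5, 9, 3) in an exon of Hsp90b1, a chaperone. Mir682 (8, 1, 26, 0), AC119211 (6, 4, 25, 0) and AL928935 (5, 5, 14, 0) matched Rpl37a, a ribosomal protein mRNA. Of the 892 read pairs with an mRNA-shared end, both fragments lay in the same mRNA in 210, which was 37.6% in ES indirect (174 of 463), 10.1% in ES-1 (33 of 326), 3.26% in ES-2 (3 of 92) and 0 of 11 in MEF.

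To find ends of miRNA size, an end was required to match mm9, lie on the gene strand inside the hairpin, measure 16 to 28 nt and share less than 50% of its words with another type. AC117657 passed this by its length and was left out, a choice made after its values were seen. The remaining 197 ends, with 65 names, numbered 86 in ES-1, 19 in MEF, 49 in ES-2 and 43 in ES indirect. The ES set made up 60.5% of them in ES-1 (52, interval 49.9 to 70.1), 53.1% in ES-2 (26, 39.4 to 66.3), 48.8% in ES indirect (21, 34.6 to 63.2) and 0 of 19 in MEF, which allows up to 15.8%. The 3 ES cell libraries had intervals that overlap each other and that lie above this limit. The overlap held only without AC117657. With it kept, the ES set was 29.2% in ES-1 (52 of 178, 23 to 36.3), 3.8% in ES-2 (26 of 684, 2.61 to 5.51), 45.7% in ES indirect (21 of 46, 32.2 to 59.8) and 0 of 177 in MEF, which allows up to 1.69%, so that ES-2 no longer overlapped the other ES cell libraries. Of the 19 MEF ends, 7 were the same 16-nt fragment of Mir29a. Where both fragments matched mm9 and AC117657 was left out, the ES set was 60.7% in ES-1 (51 of 84, 50 to 70.5), 55.6% in ES-2 (25 of 45, 41.2 to 69.1), 46.3% in ES indirect (19 of 41, 32.1 to 61.3) and 0 of 10 in MEF, which allows up to 30%.

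The ES set gave 117 read pairs, 56 in ES-1, 0 in MEF, 27 in ES-2 and 34 in ES indirect. In the order ES-1, ES-2, ES indirect, MEF, Mir292 had 23, 12, 12 and 0 read pairs. Mir291a had 15, 7, 11 and 0, Mir295 had 10, 4, 2 and 0, and Mir294 had 4, 2, 3 and 0. Mir290 followed with 2, 2, 3 and 0, Mir293 with 1, 0, 4 and 0, and Mir291b with 1 read pair in ES-1. Mir292 was thus the leading name in each of the 3 ES cell libraries. Mir302a to Mir302d had 0 read pairs in all 4 libraries, and no fragment of any annotated type overlapped their hairpins.

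The 3 ES cell libraries had close rates of the ES set. It came to 24.2 per 1000000 collapsed read pairs in ES-1 (interval 18.7 to 31.5), 21.7 in ES-2 (14.9 to 31.6) and 20.5 in ES indirect (14.7 to 28.7). These rates count fragments of any length. Ends of miRNA size were 52 of 56 in ES-1 and 26 of 27 in ES-2, but only 21 of 35 in ES indirect. In MEF 0 of 373978 read pairs allowed a rate of up to 8.02 per 1000000, the level of 3 counts, which is below the lowest bound of the ES cell libraries. MEF also differed in quality: only 60.8% of its RNA1 and 55% of its RNA2 fragments matched mm9, against 75.4% to 95.6% in the ES cell libraries, and 51.1% of its RNA1 fragments held a piece of the linker. Among read pairs with both fragments matching mm9 the rates were 27.3, 31.9 and 19.8 per 1000000 in ES-1, ES-2 and ES indirect. The 101710 such read pairs of MEF allowed up to 29.5 per 1000000, so with that restriction a difference from the ES cell libraries was not detectable at this depth. As a share of all miRNA read pairs the ES set ranged more widely, with 6.5% in ES-1 (5.04 to 8.35), 1.17% in ES-2 (0.804 to 1.69), 2.36% in ES indirect (1.69 to 3.28) and 0 of 262 in MEF, which allows up to 1.15%. This share moved with the 3 leading names in its denominator: without them it was 9.29%, 6.44% and 4.5% in the 3 ES cell libraries. Without ends shared with other RNA types it was 19.1%, 2.97% and 11.7%. With every line counted it was 5.16%, 1.16% and 1.3%.

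**Figure D2:**
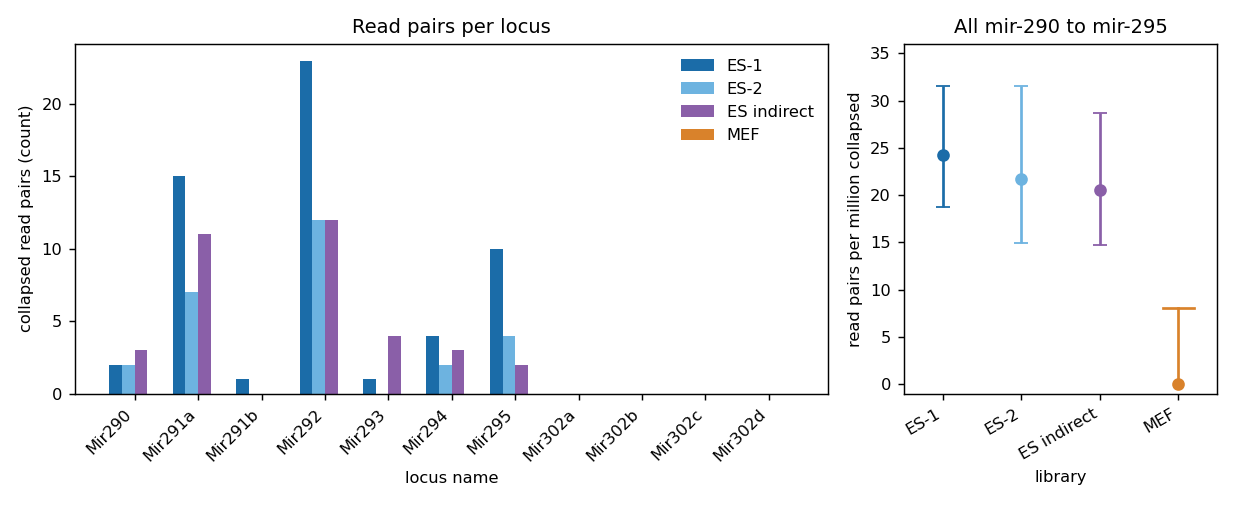
Left, collapsed read pairs (count) for each ES-set locus name, with 1 bar per library. Right, read pairs of Mir290 to Mir295 per 1000000 collapsed read pairs with 95% Wilson intervals; for MEF the line runs from 0 to the limit of 8.02 that a count of 0 allows. Mir292 and Mir291a lead in the 3 ES cell libraries, whose intervals overlap.

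The ES-set ends were mostly of miRNA size and from the 3′ side of the hairpin. Of 118 ends, 99 were of miRNA size, and 85 of these lay on the 3′ side of the hairpin. The listed mature miRNA was miR-291a-3p for 17 fragments (10, 3 and 4 in the ES cell libraries, in the order above), miR-295-3p for 16 (10, 4 and 2), miR-294-3p for 7 (4, 2 and 1), miR-291a-5p for 6, miR-290a-5p and miR-293-3p for 4 each, miR-292a-5p for 3 and miR-291b-5p for 1. A further 41 miRNA-sized fragments lay on the 3′ side of Mir292 and were not set against a mature sequence. Longer fragments were most frequent in ES indirect, where 11 of 35 ends measured at least 44 nt, compared with 0 of 56 in ES-1 and 1 of 27 in ES-2. This was not particular to the ES set. Fragments of 90 and 100 nt made up 652 of 1440 miRNA read pairs in ES indirect, 86 of 861 in ES-1 and 13 of 2311 in ES-2. Sonication and crosslinking cannot be told apart in that library. The ES set was the RNA1 end in 46 of 56 read pairs of ES-1, 17 of 27 of ES-2 and 13 of 35 ends of ES indirect.

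The fragment ends could be set against the listed mature sequence for 58 miRNA-sized ends. Of the 23 RNA2 fragments, 15 began at the mature 5′ base and 12 stopped at its last base. Of the 35 RNA1 fragments, 12 began at the mature 5′ base and 27 within 1 base of it, and 27 stopped 1 base past the mature 3′ end. Over all names, 50 RNA1 fragments stopped 1 base past the mature end, and in 47 of these the extra base equalled the first base of the linker, so it cannot be told apart from linker sequence.

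**Figure D3:**
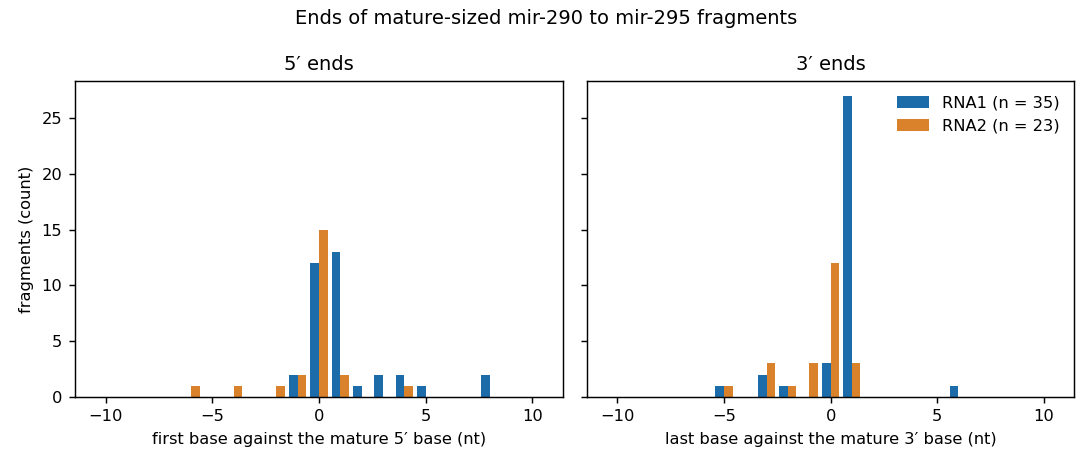
Number of miRNA-sized mir-290 to mir-295 fragments by the offset (nt) of their first base from the mature 5′ base (left) and of their last base from the mature 3′ base (right), for RNA1 (n = 35) and RNA2 (n = 23). RNA2 fragments peak at 0 on both sides, and RNA1 fragments peak at 1 base past the mature 3′ end.

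Ribosomal RNA was the most frequent partner of the ES set in ES-1 and ES-2. In ES indirect mRNA partners were more numerous than rRNA, with intervals that overlap. In ES-1 42 of 56 partners were rRNA (75%, interval 62.3 to 84.5), 7 snoRNA and 4 mRNA. In ES-2 16 of 27 were rRNA (59.3%, 40.7 to 75.5), 6 snoRNA and 1 mRNA. In ES indirect 15 of 35 were mRNA (42.9%, 28 to 59.1), 10 rRNA (28.6%, 16.3 to 45.1) and 0 snoRNA. For comparison, over all ends of each library, rRNA made up 57%, 54.1% and 44.8% in ES-1, ES-2 and ES indirect, snoRNA 21.2%, 10.1% and 1.39%, and mRNA 9.54%, 16.8% and 32.8%. The ES-set intervals held the library value except for rRNA in ES-1 and snoRNA in ES-2, which were above it. All miRNA ends together had rRNA partners in 55.6%, 68.4% and 45.8% and mRNA partners in 10.3%, 11.2% and 24.4%. Names other than the 3 leading names and the ES set had rRNA partners in 51.1%, 56.2% and 21.2% and mRNA partners in 12.2%, 16.4% and 36%. In MEF, 45.3% of miRNA partners were mRNA and 14.7% rRNA, against 31.1% and 27.3% of all its ends. The 3 leading names carried all but 19 of these 120 mRNA partners, and the other names had 24.1% mRNA (19 of 79, 16 to 34.5) and 29.1% rRNA (23 of 79, 20.3 to 39.9), intervals that hold the library values. The rRNA share in MEF was 44.4% where both fragments matched mm9 (24 of 54) and 36% where both had at least 20 nt (18 of 50), whereas the library value of 27.3% is over all ends without these filters.

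**Figure D4:**
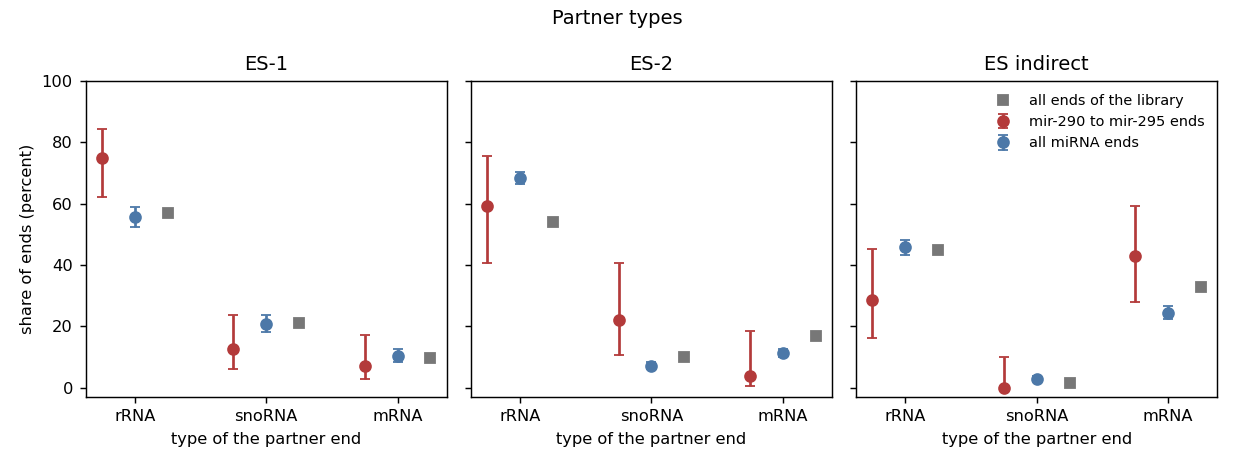
Share (percent) of partner ends of type rRNA, snoRNA and mRNA for mir-290 to mir-295 ends and for all miRNA ends, with 95% Wilson intervals, beside the share of that type among all ends of the library (grey squares), in the 3 ES cell libraries. In ES indirect the ES-set mRNA share (42.9%) is above its rRNA share (28.6%), the reverse of ES-1 (7.14% and 75%).

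Within the cluster the rRNA partners were spread over the names. Mir292 was joined to rRNA in 18 of 23 read pairs of ES-1, in 8 of 12 of ES-2 and in 2 of 12 of ES indirect, where 8 partners were mRNA and 2 were MMVL30-int, the inner part of an endogenous retrovirus. Mir295 was joined to rRNA in 8 of 10 and Mir294 in 4 of 4 read pairs of ES-1. The rRNA partners in ES-1 were 24 large-subunit and 18 small-subunit fragments, and in ES-2 13 and 3. The 13 snoRNA partners had 1 read pair each and came from both main snoRNA classes. Among them were Snora24, Snora44 and Snord99 in ES-1 and Snora73b, SNORA66 and Snord110 in ES-2. A SNORA81 gene was a partner in both ES-1 and ES-2, under different gene identifiers.

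The 20 mRNA partners of the ES set were 20 different genes, each with 1 read pair. Of these, 17 lay on the gene strand, 17 matched mm9, 12 were exonic and 15 came from ES indirect. The fragments of Tiam1, Tceal3 and Rfc1 did not match mm9, and those of Tiam1, Tceal3 and Serhl were antisense. Mir292 was joined there to the 3′ UTR of Cdca4, a cell division gene (chr12:114058580-114058703), and to coding sequence of Parp1, a DNA repair enzyme, and Hsd17b10, a mitochondrial dehydrogenase. It also joined an exon of Ikbkb, a kinase of NF-kB signalling, and an intron of Gsk3a, a kinase of Wnt and insulin signalling. miR-291a-3p fragments were joined to the 3′ UTR of Epb4.1l5 (chr1:121444469-121444573) and to coding sequence of Ccng2, which encodes cyclin G2, an inhibitor of cell cycle progress. miR-293-3p was joined to the 3′ UTR of Pptc7 (chr5:122771268-122771343), a mitochondrial phosphatase. In ES-1 the partners were Plk5, Taf1d, Tbc1d24 and Tceal3, and in ES-2 the only one was Cat, catalase, joined to miR-291a-5p. No gene was seen in 2 libraries.

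The complement of the shared seed was looked for in these partners as the letters GCACTT, which pair with bases 2 to 7 of the AAGUGC miRNAs, on the strand of the fragment only. It was present in 1 of the 12 partner fragments of 50 to 130 nt in ES indirect, and in 2.21% of all 793585 mRNA fragments of this length in that library. The stretch is shown with the match in capitals. It lies in coding sequence of Hsd17b10 and was joined to the 3′ side of Mir292, whose 3′ arm was not set against a mature sequence here. Among the 12 partners, only Epb4.1l5 and Ccng2 were joined to a miRNA-sized fragment of a listed AAGUGC miRNA, miR-291a-3p. Most of the others were joined to Mir292, including a longer fragment (Acap2). The rest were the partner of miR-293-3p, whose seed differs, and that of a longer fragment of Mir291a (Nolc1). Seed pairing was therefore not tested by this count.
Hsd17b10 fragment, chrX:148438198-148438225: gaatcttatagGCACTTtcaatgtgatc
In ES-1 the 3 partner fragments of this length held no match, and 1 of them, Taf1d, was joined to the 5′ side of Mir290. Of all mRNA fragments of this length in ES-1, 1.51% held the letters.

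Over all miRNA names, mRNA partners lay in exons more often than mRNA ends in general did in ES indirect, and in MEF only with the 3 leading names included. The exonic share of mRNA partners was 46.7% in ES-1 (42 of 90, interval 36.7 to 56.9), 42.9% in ES-2 (111 of 259, 37 to 48.9), 35.7% in ES indirect (132 of 370, 31 to 40.7) and 36.7% in MEF (44 of 120, 28.6 to 45.6). Over all mRNA ends it was 42.9%, 37.4%, 22.6% and 17.8%. The intervals of ES indirect and MEF lie above the library value, and those of ES-1 and ES-2 hold it. Without the 3 leading names the share was 38.4% in ES indirect and 21.1% in MEF (4 of 19, 8.51 to 43.3). In MEF it was 20% where both fragments matched mm9 (2 of 10) and 0 of 7 where both had at least 20 nt. Without ends that shared their sequence with other RNA types it was 38.5% in ES indirect (42 of 109). The annotated 3′ UTR held 18.9%, 8.49%, 11.9% and 4.17% of mRNA partners in the 4 libraries, and the 5′ UTR 6.67%, 15.1%, 4.86% and 19.2%. The gene strand held 36 of 42 exonic partners in ES-1, 84 of 111 in ES-2, 19 of 44 in MEF and 114 of 132 in ES indirect. Over all exonic mRNA ends, the gene strand held 84.8% in ES-1, 67% in ES-2, 55.3% in MEF and 88.3% in ES indirect.

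Self pairs, with the same miRNA name at both ends, were rare. There were 40 with 27 names, 6 in ES-1 (0.697% of miRNA read pairs, interval 0.32 to 1.51), 0 of 2311 in ES-2, which allows up to 0.13%, 32 in ES indirect (2.22%, 1.58 to 3.12) and 2 in MEF (0.763%, 0.21 to 2.74). Mir3063 and Mir3113 had 5 each, Mir5114 had 3, and AL833775, Mir378b and Mir682 had 2 each. The other 4 of the first 10 names, in alphabetical order among those with 1, were AC093451, AC117577, AC122359 and AC125110. Mir3063 lies in an exon of Igf2bp1, an mRNA-binding protein gene, and Mir5114 in an exon of Scd2, a fatty acid desaturase gene. No ES-set name was paired with itself. In 1 read pair of ES indirect, however, both fragments reached into the Mir295 hairpin: RNA1, named Mir294 and 125 nt long, ended at chr7:3220810, and RNA2, named Mir295, began at chr7:3220814.

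The fragments of a self pair mostly overlapped each other. This was so in 25 of the 40. In 9 RNA1 lay upstream of RNA2, in 4 RNA2 lay upstream, and in 2, both in MEF, they lay on opposite strands. Where they did not overlap, the gap was 0 to 52 bases with a median of 25. Fragments of 90 nt for RNA1 and 100 nt for RNA2, the longest common lengths, were found in 31 of the 40 self pairs, compared with 652 of 1440 miRNA read pairs in ES indirect and 86 of 861 in ES-1. Of the 25 overlapping self pairs, 22 had these lengths. The study removed same-gene read pairs that could stem from an unbroken RNA fragment, and that filter was not applied here. Whether the self pairs arose by ligation within a hairpin was therefore not tested. Both ends were miRNA names in a further 55 read pairs, of which 24 joined members of the mir-692 group, on different chromosomes. In 8 the names were neighbours within 2000 bases.

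RNA pairs were tested with Fisher's exact test and Benjamini-Hochberg adjustment, as the study names it. The one-sided form, the adjustment over all observed RNA pairs, the removal of ribosomal read pairs and the minimum of 3 read pairs were set here. With at least 3 read pairs and an adjusted p under 0.05, 1.09% of all 135636 RNA pairs were called in ES-1, and 5 of 287 with a miRNA name. In ES-2 it was 0.719% of all pairs and 3 of 498, in ES indirect 2.54% and 23 of 336, and in MEF 0.842% and 0 of 161, where 129 had an unadjusted p under 0.05. In ES-1 and ES-2 merged it was 0.895% and 7 of 760. The p-values treat read pairs as units and so describe each library. No ES-set name had 3 read pairs with one named partner other than rRNA (Mir292 with MMVL30-int had 2), so none could be called.

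Of the 31 calls over the 4 libraries, 13 had read pairs with both fragments in Gm10116 and 4 more in Rpl37a, Actg1 or Serf2, and 8 were of Mir5099. In ES indirect, AC154650 with Myo7a had 28 read pairs (0.0162 expected, adjusted p = 6.7e-84, Fisher's exact test with Benjamini-Hochberg adjustment), of which 14 had both fragments in Gm10116 sequence. AC154650 was also called there with Gm10116 (10 read pairs) and Grik3 (8), Mir692-1 with Myo7a (8), Mir692-2b (7), Mir692-2a (6), Gm10116 (4) and Ftl2 (3), and AL645948 and Mir692-2a each with Rims2 (4). Mir5099 was called with 4 copies of U3, the snoRNA of early rRNA processing (9, 8, 8 and 4 read pairs), FordPrefect (6) and URR1A (3). The remaining calls of ES indirect were AC119211 with Mir682 (4) and, with 3 read pairs each, AL845466 with 4930412F15Rik, AL669855 and AC163694 with Gm12715, AC159378 with B4A, Mir1906-2 with Meg3, a noncoding RNA of the imprinted Dlk1-Dio3 region, and AL772216 with Sfmbt2, the Polycomb gene whose introns hold a repeated miRNA cluster. The Mir1906-2 locus lies on chrX, whereas Mir1906-1 lies at chr12:110782751-110782830, near Mir337 (chr12:110823999-110824095) of the Dlk1-Dio3 list. The name AL772216 covered 9 loci within chr2:10397127-10428308. Whether both fragments of the calls with Meg3 and Sfmbt2 came from the same transcript was not tested. ES-1 called AC154650 with Myo7a (4) and Gm10116 (3), Mir5099 with Snora64 (7) and FordPrefect (3), and Mir5126 with U1 (3). ES-2 called Mir692-1 with Mir692-2b, AC117657 with MT2B and Mir3963 with AC150277, 3 read pairs each.

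Other miRNA groups were read beside the ES set as lists. The counts follow the order ES-1, ES-2, ES indirect, MEF. The list of the mir-17 clusters, which drive proliferation, with the related Mir92b, which lies outside them and had 1 read pair, held 34 read pairs over 12 of 16 annotated loci (11, 6, 16 and 1). Of its ends 24 were of miRNA size, and Mir92-2 led with 13. miRNAs of somatic and mesenchymal cells had 24 read pairs over 11 of 33 loci (3, 2, 5 and 14). Of the 14 in MEF, 7 were of Mir29a, all with the same 16-nt fragment, and 3 of Mir29b-1. The listed loci of the imprinted Dlk1-Dio3 cluster had 22 over 14 of 31 loci (3, 3, 16 and 0). The list does not hold every miRNA of that region: Mir432 (5), Mir493 (4) and Mir3070b (4) are among those outside it. The mir-297, mir-466, mir-467 and mir-669 families, most copies of which lie in introns of Sfmbt2, had 15 over 15 of 83 loci (0, 1, 14 and 0), of which Mir466i, Mir467f and Mir669n lie on other chromosomes. Only 2 ends of the listed Dlk1-Dio3 loci and 0 of these families were of miRNA size. let-7, which rises as cells differentiate, had 1 read pair, in ES indirect. Among genes of the pathway, Dicer1 mRNA had 36, 18, 63 and 0 ends and Eif2c2, which encodes Argonaute 2, had 59, 25, 116 and 0. Tnrc6a had 30, 3, 48 and 3, Eif2c3 had 5, 3, 26 and 1, and the other genes looked at had 0 in MEF. These are raw counts. MEF had 373978 collapsed read pairs against 2310134 in ES-1, so a 0 there does not show absence.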

How the data were processed

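The authors deposited, for each library, lines of paired RNA fragments with no measured value; each line gives the mm9 position, strand, sequence, type, name and region of RNA1 and RNA2. The submitters' processing notes name TopHat2 2.1.1 and builds mm9 and NCBIM37, and by the study's methods read pairs of equal place and random barcode had been merged. Lines were counted here as read pairs, and those with equal coordinates and strands at both ends as 1. Depth was 2310134 collapsed read pairs in ES-1, 1241787 in ES-2, 373978 in MEF and 1655476 in ES indirect, and miRNA read pairs stood for 1.73, 1.08, 1.13 and 2.3 lines each.

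Hairpins and mature miRNAs came from RefSeq (989 of 1005 hairpins and 1666 of 1738 matures placed on mm9) and GENCODE vM1. A 16-base word counted as shared with rRNA, tRNA, snoRNA or snRNA when at least 3 fragments of that type held it. For mRNA, a word counted when any coding transcript of GENCODE vM1 held it. RNA pairs were tested without read pairs that had a ribosomal end; the test was checked on simulated data. ES-1 and ES-2 were also merged. Shares have 95% Wilson intervals and no test between groups; a 0 is given the limit of 3 counts. miRNA names at equal coordinates were shared by ES-1 and ES-2 in 1 read pair, ES-1 and ES indirect in 1, and ES-2 and MEF, which carry the same sample barcode on different lanes, in 2.

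The rule for named loci took all ES-set names, the 15 names with most read pairs and the 5 of each library, the 3 main partners of the 10 leading names, every called pair, and the 10 names with most self pairs; loci of the lists and ES-set partners are named besides. The members, lists and rules were chosen with earlier results of these data known. Alternatives counted every line, required mm9 matches, length, strand or a wider collapse, or changed the calling rule. Python 3.11.15, pandas 2.3.3, scipy 1.17.1 and pysam 0.24.0 were used. The brain libraries entered only the count over the whole series.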

Additional observations from a re-analysis of the deposited data

How the results depend on the processing

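Values are of ES-1 and ES-2 merged. The share of read pairs with a miRNA end, 0.0893%, became 0.067% when both fragments had to match mm9, 0.0376% when both had at least 20 nt, 0.0288% without the 3 leading names and 0.0338% without ends shared with other RNA types; leaving out 1 of the 2 ES assays gave 0.0373% to 0.186%, without ES-2 and without ES-1. The rRNA share of partners, 64.9%, became 57.8% with every line counted, 57.1% with at least 20 nt, 54.5% without the leading names and 60% without shared ends, and 55.6% to 68.4% without an assay. The mRNA share of partners, 10.9%, was 31.2% with ribosomal read pairs left out. Self pairs, 0.189%, became 0.902% with every line counted, 0.57% with at least 20 nt, 0 where fragments had to be apart on 1 strand and 0.0833% without shared ends, and 0 to 0.697% without an assay. The ES-set share, 2.62%, became 4.28% with mm9 matches, 6.94% with at least 20 nt, 8.12% without the leading names and 6.91% without shared ends, and 1.17% to 6.5% without an assay. The exonic share of mRNA partners, 43.8%, became 34.8% with every line counted and 49.4% with mm9 matches, and 42.9% to 46.7% without an assay. The 7 called pairs became 42 with every line counted and 18 at 2 read pairs, and 3 to 5 without an assay. The 2 settings on leading names and shared ends were chosen after seeing the data. For single libraries, 82 of 148 values stayed within the main interval or within 1.5 times the main count. No paired analysis was possible because ES indirect and MEF have 1 library each. The counts are small: most names have 1 read pair, and MEF has 19 ends of miRNA size. The cause of these changes was not tested.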

Other observations

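In MEF the leading names among ends of miRNA size, AC117657 aside, were Mir29a, with 7 read pairs, and Mir29b-1, with 3; they belong to a family known for lowering collagen mRNAs. Mir29a had 0 read pairs in ES-1, ES-2 and ES indirect, and Mir29b-1 had 1, in ES-1. All 7 fragments of Mir29a were RNA1, had the same 16-nt sequence, began 7 bases into miR-29a-3p and stopped 1 base past its end, and none of their 7 partners matched mm9 or was rRNA.

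Read pairs that joined the names of neighbouring hairpins included, in ES indirect, Mir17 with Mir18, Mir194-1 with Mir215 (207 bases apart, in 2 read pairs), Mir374 with Mir421, Mir497 with Mir195, Mir669k with Mir669a-1, and Mir294 with Mir295, the only read pair with an ES-set name at both ends. In the latter the fragment named Mir294 ran on into the 5′ side of the Mir295 hairpin and ended 3 bases before the other fragment, so the pair lay within 1 stretch. ES-1 had Mir540 with Mir337. The fragments of Mir194-1, Mir215, Mir497 and Mir540 lay on the strand opposite the miRNA gene. Most of the fragments did not lie wholly inside the annotated locus. These names were chosen after their values were seen.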
